A study of Mus musculus with 16 samples.

Results

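Hemi-brain RNA from mice labelled Lcn2-/- was compared with that from wild type mice after a saline injection, that is, in brains that had received no inflammatory stimulus. All mice were C57BL/6J and 3 to 4 months old, and brains were perfused with PBS and taken 8 h after the injection. The comparison used 4 libraries labelled Lcn2-/- and 4 wild type libraries, 8 of the 16 in the series. The other 8 came from mice of both genotype labels injected with lipopolysaccharide (LPS), a cell wall component of Gram-negative bacteria, and took no part in the calls. The design text speaks of 3 to 4 replicates per combination, while 4 per group were present and used. The labels name neither the targeting construct of the Lcn2 allele nor whether the wild type mice were littermates, and they do not give the sex. A gene was included when it reached a log2 RPKM of -1 (0.5 RPKM, reads scaled to transcript length and library size) in at least 3 of the 8 saline libraries, which held for 16778 of 33289 genes. In all 8 saline libraries the Y-linked gene Ddx3y was at 3.20 to 3.76 log2 RPKM and Xist at -4.40 or below, the pattern of male tissue. The values are not counts, and the sequencing depth behind them is therefore unknown. Each value comes from a piece of whole brain tissue, so fewer cells of a type and less RNA per cell cannot be told apart.

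Lipocalin-2 is a small secreted protein that binds iron-loaded siderophores of bacteria and withholds the iron from them. It is barely transcribed in the resting brain and is strongly induced in astrocytes, endothelium and infiltrating cells by inflammatory signals. Slc22a17 and Lrp2 (megalin) encode cell-surface receptors for it, and Mc4r, a melanocortin receptor of the hypothalamus, has been described as a target of circulating lipocalin-2. A mouse strain made by gene targeting and then backcrossed also carries a stretch of donor chromosome around the targeted gene, which is why the position of each gene relative to Lcn2 is given below.

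The labelled tissue was borne out by its markers. The 11 pan-neuronal markers summed to between 1278 and 1296 RPKM in wild type and between 1214 and 1283 RPKM in Lcn2-/- labelled libraries, and astrocyte and oligodendrocyte markers summed to at least 625 and 890 RPKM in every library. Markers of blood cells were low: the 7 erythroid markers listed, tested or not, summed to at most 11.97 RPKM. A single library, saline replicate 4 labelled Lcn2-/-, stood apart from the rest, and its title alone ends in a letter whose meaning is not given. It had 17112 genes at 0.5 RPKM or above, against 16459 to 16497 in the other 7. Its Spearman correlation with the others was at most 0.974, whereas the highest among the 7 was 0.996. The main results are therefore given with all 8 libraries and without replicate 4.

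The targeted gene itself did not distinguish the groups after saline. Lcn2 (ENSMUSG00000026822, chr2:32384633-32388252, minus strand, GRCm38) measured 0.065, 0.0741, 0.204 and 0.137 RPKM in the wild type libraries and 0.132, 0.204, 0.351 and 0.247 RPKM in the Lcn2-/- labelled ones. The groups overlapped, and every library was below the level required for testing. In a limma fit without that filter the difference was 1.03 ± 0.44 on the log2 scale (± SE, adjusted p = 0.89), higher in the libraries labelled as lacking the gene. After LPS, Lcn2 lay between 66.7 and 82.7 RPKM in wild type and between 34.1 and 40.2 RPKM in Lcn2-/- labelled libraries. The transcript was thus present under the knockout label, so the group is called Lcn2-/- labelled. The table has a single value per gene, and reads from outside a deletion would not check the label. Of the receptors, Slc22a17 lay between 166 and 187 RPKM in wild type and between 169 and 188 RPKM in Lcn2-/- labelled libraries, with a difference of 0.045 ± 0.049 (adjusted p = 0.80). Lrp2 was at or below 0.0785 RPKM in every saline library and was not tested. Mc4r lay between 0.437 and 0.689 RPKM in wild type and between 0.260 and 0.644 RPKM in Lcn2-/- labelled libraries, with overlapping groups (-0.22 ± 0.31, adjusted p = 0.84; 0.039 ± 0.23 without replicate 4). Of the 11 lipocalin family genes listed, 4 reached the level for testing and 0 were called. Prostaglandin D synthase (Ptgds), the most abundant of these 4, lay between 373 and 415 RPKM in all 8 libraries (-0.029 ± 0.047, adjusted p = 0.86).

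Few genes were called by the genotype label after saline. limma with Benjamini-Hochberg adjustment over all genes called 3 genes at an adjusted p under 0.05, which is 0.0179% of those tested. Of these, Tmem181b-ps and Trub2 were higher and Cercam was lower in Lcn2-/- labelled libraries. At an unadjusted p under 0.05 there were 1108 genes (6.6%), and in 873 genes (5.2%) the groups did not overlap. The median difference over all genes was -0.0053 on the log2 scale and the median SE was 0.081. An absolute difference of 1 or more was estimated for 29 genes.

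Trub2 and Cercam lie in the same region of chromosome 2 but are not adjacent: Coq4, described below, reaches into the stretch between them. Trub2 (ENSMUSG00000039826, chr2:29761224-29788502, minus strand, GRCm38) encodes a mitochondrial pseudouridine synthase of the TruB family. Cercam (ENSMUSG00000039787, chr2:29869164-29882840, plus strand) encodes a glycosyltransferase-like protein related to the collagen galactosyltransferases, first described as an adhesion molecule of cerebral endothelium. The 250 bases before the RefSeq start of each gene (GRCm38.p6) were compared because Trub2 and Cercam changed in opposite directions. By the GENCODE annotation the Trub2 window (chr2:29787672-29787921, minus strand) lies wholly within Trub2 exons, and the Cercam window (chr2:29869244-29869493, plus strand) has 102 bases in Cercam exons. The other 148 bases of the Cercam window, chr2:29869346-29869493 on the plus strand, are shown, with GC boxes (GGGCGG, or CCGCCC on the other strand) in capitals.

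Cercam: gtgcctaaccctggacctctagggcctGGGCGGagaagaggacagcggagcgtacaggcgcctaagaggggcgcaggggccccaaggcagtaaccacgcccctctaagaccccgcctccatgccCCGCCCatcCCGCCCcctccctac

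The Trub2 window of 250 bases has 43.6% GC, 7 CpG dinucleotides and 0 GC boxes, and that of Cercam has 67.6% GC, 18 CpG dinucleotides and 3 GC boxes. By GENCODE the Trub2 window is exon sequence throughout and the Cercam window only in part. The 2 windows are therefore not alike, and the Trub2 values do not describe sequence upstream of the GENCODE gene. GGGCGG, on either strand, occurs in 35.7% of 32851 promoter windows of 300 bases, which are longer than the 250 bases used here. The share of windows with 3 such boxes is not given, so the count in the Cercam window cannot be ranked. These are reference sequences, and the alleles carried by the mice were not read.

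Trub2 measured 2.80, 2.57, 2.87 and 2.73 RPKM in the wild type libraries and 4.56, 4.34, 4.49 and 4.65 RPKM in the Lcn2-/- labelled ones. Every Lcn2-/- labelled library was above every wild type library, and replicate 4 was the highest of its group. The difference was 0.72 ± 0.054 on the log2 scale (± SE, limma adjusted p = 0.0022), a 1.65-fold higher level. Cercam measured 2.45, 2.51, 2.48 and 2.55 RPKM in the wild type libraries and 1.17, 1.20, 0.988 and 1.001 RPKM in the Lcn2-/- labelled ones. The groups were again apart, with wild type libraries within a narrow range. The difference was -1.20 ± 0.086 (limma adjusted p = 0.0022), so that the Lcn2-/- labelled level was 43.5% of wild type.

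The third gene, Tmem181b-ps (ENSMUSG00000096780, chr17:6438524-6467022, minus strand), is a transcribed pseudogene related to Tmem181a, a transmembrane protein gene that lies on the same chromosome. In wild type its level was 12.2, 12.02, 12.7 and 12.5 RPKM, and in Lcn2-/- labelled libraries 19.4, 19.6, 20.05 and 20.8 RPKM, again without overlap. The difference was 0.69 ± 0.038 (limma adjusted p = 0.00042). Reads of the pseudogene and of related copies could not be told apart here. Tmem181a itself (chr17:6256860-6308314) lay between 1.15 and 1.61 RPKM in wild type and between 1.83 and 2.19 RPKM in Lcn2-/- labelled libraries, without overlap, but did not pass the test (0.59 ± 0.12, adjusted p = 0.54). Dynlt1c, a dynein light chain gene of the same region, was at 0.30 ± 0.12 and Ezr, which encodes the membrane linker ezrin, at 0.19 ± 0.058 (adjusted p = 0.74 for both).

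All 3 genes were called in the same direction in the LPS libraries, which had no share in choosing them. There the genotype label was accompanied by many more differences: 4220 genes (25.2%) were called, so a call after LPS is by itself common. The sizes were nevertheless close to those after saline. Trub2 measured 2.99, 3.25, 2.92 and 3.16 RPKM in wild type and 5.12, 5.05, 4.94 and 5.20 RPKM in Lcn2-/- labelled LPS libraries (0.72 ± 0.048, adjusted p = 5.4e-05). Cercam was at 2.24, 2.44, 2.10 and 2.32 against 0.932, 1.06, 1.16 and 0.915 RPKM (-1.16 ± 0.093, adjusted p = 1e-04). Tmem181b-ps was at 11.7, 12.05, 11.3 and 11.4 against 18.8, 18.7, 18.5 and 18.6 RPKM (0.68 ± 0.030, adjusted p = 6e-06). In no case did the groups overlap. The test of the difference between the LPS and the saline effect gave interaction terms of 0.0038 ± 0.068 for Trub2, 0.036 ± 0.13 for Cercam and -0.0074 ± 0.045 for Tmem181b-ps (adjusted p = 0.98, 0.87 and 0.93). Across the genome this interaction was called for 1432 genes (8.53%). For genes named because of their saline difference, the term subtracts the value they were chosen on.

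**Figure D1:**
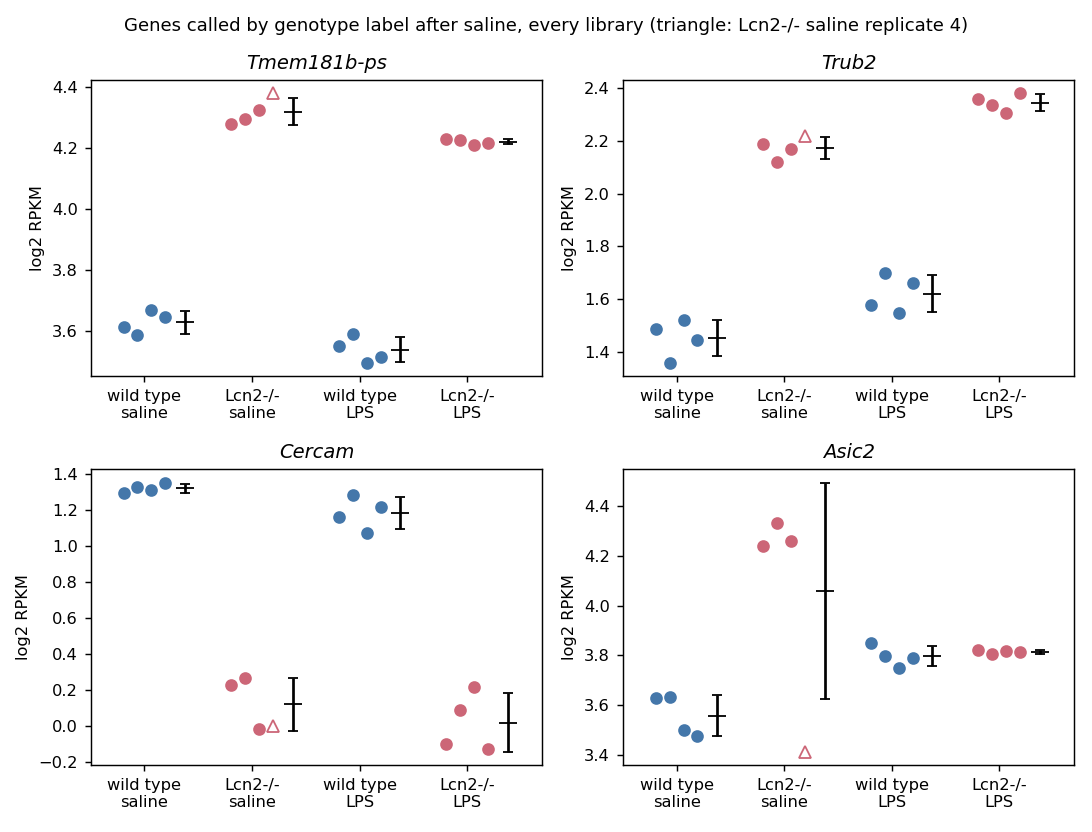
Log2 RPKM of Tmem181b-ps, Trub2, Cercam and Asic2 in all 16 libraries. Points are libraries (blue, wild type; red, Lcn2-/- labelled; open triangle, saline replicate 4 labelled Lcn2-/-) and black marks are the group mean ± SD with n = 4. Tmem181b-ps, Trub2 and Cercam separate by genotype label after both injections, whereas Asic2 separates only in 3 of the 4 Lcn2-/- labelled saline libraries.

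Other genes overlap the called pair on chromosome 2. The annotated start of Coq4, a coenzyme Q biosynthesis gene on the plus strand (chr2:29787493-29797935), lies within the 5' end of Trub2. Coq4 lay between 3.39 and 3.77 RPKM in wild type and between 3.93 and 4.23 RPKM in Lcn2-/- labelled libraries (0.19 ± 0.052, adjusted p = 0.74). The start of Cercam lies within 2600006K01Rik, an antisense gene on the minus strand (chr2:29868723-29870317). It measured 0.523, 0.981, 0.739 and 0.861 RPKM in wild type and 0.366, 0.355, 0.449 and 0.764 RPKM in Lcn2-/- labelled libraries. Only replicate 4 overlapped with wild type: the difference was -0.72 ± 0.29 with it and -0.96 ± 0.22 without it (adjusted p = 0.74 and 0.25), and -1.06 ± 0.18 after LPS (adjusted p = 0.0039). No source used here says whether strand was used in counting, so reads of these overlapping genes cannot be told apart.

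Trub2 and Cercam start less than 5 Mb from Lcn2, but genes closer to it were not called. Within 1 Mb of the Lcn2 start, 53 genes were tested, 0 were called and 1 was at an unadjusted p under 0.05 (limma; 3 without replicate 4). Their differences ran from -0.26 for Aif1l to 0.42 for Gm13609. Within 5 Mb 2 of 154 genes were called, and within 10 Mb 2 of 293 (0.683%, against 0.0179% of all genes). At an unadjusted p under 0.05 there were 26 of 293 (8.87%, against 6.6%), or 46 (15.7%, against 10.4%) without replicate 4. After LPS 78 of the 293 were called (26.6%, against 25.2%).

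Other members of this stretch did not pass in the fit of the 8 saline libraries. Col5a1, a fibrillar collagen chain gene, measured 2.46, 2.65, 2.33 and 2.52 RPKM in the wild type libraries and 3.16, 3.08, 3.29 and 3.59 RPKM in the Lcn2-/- labelled ones, without overlap (0.40 ± 0.069, adjusted p = 0.42). After LPS it was called (0.57 ± 0.058, adjusted p = 0.00027). Ntng2, which encodes the synaptic adhesion protein netrin-G2, lay between 3.63 and 4.23 RPKM in wild type and between 4.86 and 5.22 RPKM in Lcn2-/- labelled libraries, without overlap (0.34 ± 0.059, adjusted p = 0.42). After LPS it was at 0.15 ± 0.046 (adjusted p = 0.042). For the saline comparison, Col5a1 and Ntng2 were both called in a single model of all 16 libraries. The same held with 15 libraries, leaving out saline replicate 4 labelled Lcn2-/-.

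**Figure D2:**
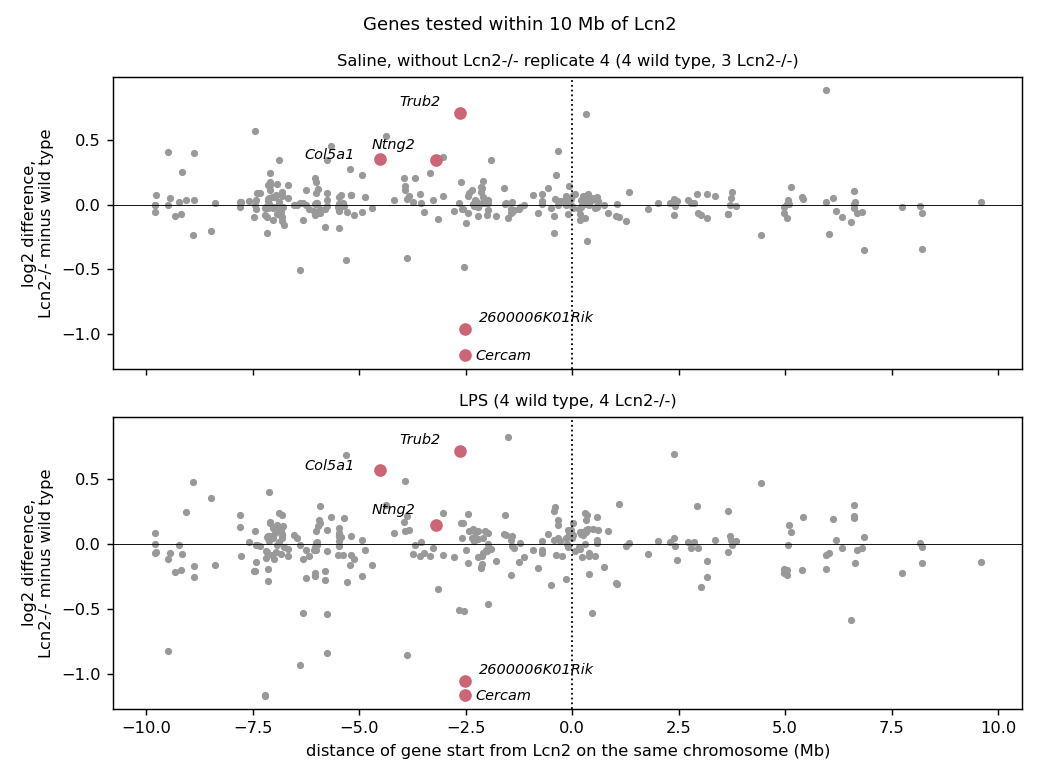
Log2 difference between Lcn2-/- labelled and wild type libraries for the 293 genes tested within 10 Mb of Lcn2, after saline without replicate 4 (upper) and after LPS (lower), by distance of the gene start from Lcn2 (dotted line). Red points are genes named in the text; Trub2, Cercam, Col5a1, Ntng2 and 2600006K01Rik lie on the same side of Lcn2 in both panels.

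Leaving out replicate 4 called 4 genes (0.0238%): the same 3 and Asic2. The difference was 0.70 ± 0.052 for Trub2, -1.16 ± 0.079 for Cercam and 0.67 ± 0.032 for Tmem181b-ps (adjusted p = 0.0014, 0.00092 and 0.000135). The number at an unadjusted p under 0.05 was 1750 (10.4%), and the groups did not overlap for 1712 genes (10.2%). The median SE fell from 0.081 to 0.060 on the log2 scale. Asic2 (chr11:80880169-81968457, minus strand) encodes a subunit of acid-sensing ion channels. It measured 12.4, 12.4, 11.3 and 11.1 RPKM in the wild type libraries and 18.9, 20.1, 19.1 and 10.6 RPKM in the Lcn2-/- labelled ones. Replicate 4 was below every wild type library and the other 3 were above all of them. The difference was 0.50 ± 0.19 with replicate 4 (adjusted p = 0.74) and 0.72 ± 0.049 without it (adjusted p = 0.00092). After LPS Asic2 lay between 13.4 and 14.4 RPKM in all 8 libraries of both labels (0.018 ± 0.030, adjusted p = 0.68).

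**Figure D3:**
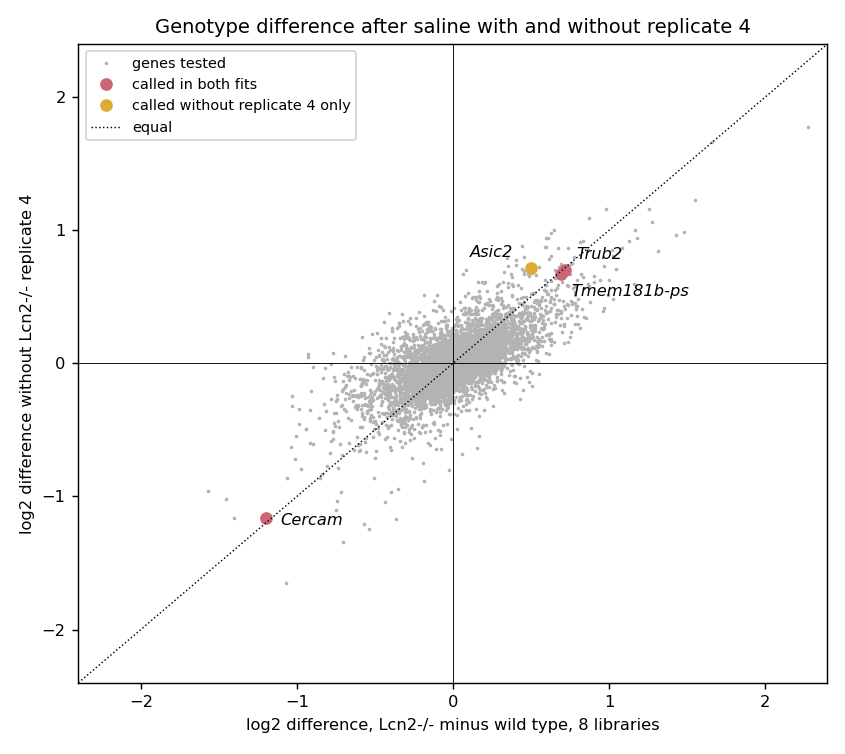
Log2 difference between Lcn2-/- labelled and wild type saline libraries with all 8 libraries (x axis) and without replicate 4 (y axis). Each grey point is 1 of 16778 genes. Trub2, Tmem181b-ps and Cercam lie near the dotted line of equal values, and Asic2 lies above it at 0.50 and 0.72.

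A few other models called more genes, the same 3 among them in each. With all 16 libraries in a single model 8 genes (0.0477%) were called, with 15 libraries, leaving out replicate 4, there were 13 genes (0.0775%), and with array quality weights, which gave replicate 4 a weight of 0.102 and the others 0.815 to 2.09, 10 genes (0.0596%). Camkk1, a kinase that activates calmodulin-dependent kinases I and IV, was among those called in each of these. It lay between 27.5 and 29.3 RPKM in wild type and between 31.4 and 33.4 RPKM in Lcn2-/- labelled libraries (0.20 ± 0.035, adjusted p = 0.44 in the fit of the 8 libraries). After LPS the Camkk1 difference was -0.033, and the interaction was called (-0.23 ± 0.044, limma adjusted p = 0.0077). The long non-coding RNA Gm26659, likewise called in each of these models, lay between 0.506 and 0.559 RPKM in wild type, whereas the Lcn2-/- labelled libraries had 0.939, 0.901, 1.05 and 1.76 RPKM. Replicate 4 was the highest of these (1.08 ± 0.21 with it, 0.86 ± 0.12 without it), and after LPS the difference was 0.62 ± 0.13 (adjusted p = 0.0088). Slit2, a secreted axon repellent, lay between 1.60 and 1.86 RPKM in wild type and between 1.05 and 1.30 RPKM in Lcn2-/- labelled libraries (-0.51 ± 0.10, adjusted p = 0.53), and was at -0.55 ± 0.076 after LPS (adjusted p = 0.0013). Lrrc10b (0.27 ± 0.034), Vsig2 (0.36 ± 0.060) and Inka2 (0.22 ± 0.037) were called with array weights only and had no overlap between groups, and Fkbp5 was likewise called only there.

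The gene lists, chosen with earlier results of these data known, are described by counts and medians. Over all genes, 47.9% had an estimate above 0 (48.5% without replicate 4), 3.58% were higher and 3.03% lower at an unadjusted p under 0.05 (5.36% and 5.07% without replicate 4), and 2.82% were higher without overlap. Among members of the lists, only Trub2 (12 pseudouridine synthase genes tested, median -0.0025, and -0.010 without replicate 4) and Cercam (16 genes of fibrillar collagens and collagen glycosylation, median -0.051) were called.

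Glucocorticoid response genes, which the stress hormone receptor induces through binding to DNA, lay on the higher side in Lcn2-/- labelled libraries. All 25 tested had an estimate above 0, with a median of 0.16 (0.17 without replicate 4, where 24 were above 0), and 0 were called. At an unadjusted p under 0.05 there were 8 of 25 higher and 0 lower, or 10 and 0 without replicate 4. The mean log2 RPKM over the list was 2.70, 2.99, 2.89 and 3.06 in wild type and 3.14, 3.12, 3.08 and 3.18 in Lcn2-/- labelled libraries. The groups were apart, with wild type replicate 1 the lowest by a margin. Without that library the median was 0.11.

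Among the members, Fkbp5, a co-chaperone of the glucocorticoid receptor, lay between 4.42 and 4.71 RPKM in wild type, whereas the Lcn2-/- labelled libraries had 5.57, 5.68, 5.52 and 4.68 RPKM. Only replicate 4 overlapped with wild type (0.22 ± 0.067, adjusted p = 0.74, and 0.29 ± 0.039, adjusted p = 0.098, without it), and with array quality weights the gene was called (0.28, adjusted p = 0.046). Hif3a, a hypoxia-inducible factor subunit, lay between 0.420 and 0.685 RPKM in wild type and between 0.686 and 1.22 RPKM in Lcn2-/- labelled libraries (0.62 ± 0.23, adjusted p = 0.74). Plin4, a lipid droplet coat protein gene, lay between 0.354 and 0.565 against 0.571 and 0.907 RPKM (0.60 ± 0.21, adjusted p = 0.74). After LPS the list did not lie to one side: 7 members were called higher and 11 lower, with a median of -0.091, where 11.4% and 13.7% of all genes were called. The interaction was called for Fkbp5 (-0.44 ± 0.094, adjusted p = 0.014), Hif3a (-0.88 ± 0.24, 0.034) and Plin4 (-0.76 ± 0.20, 0.029), and for 8.53% of all genes. Hif3a and Plin4 had the largest saline differences of the list, and Fkbp5 was named after its values were seen. The term subtracts those saline values, so it is not independent of the choice of these genes.

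A palindromic glucocorticoid response element, written here as GNACA and TGTNC with 3 bases of any kind between them, occurred in the promoter windows of 4 of the 23 list members that have one in the RefSeq table, and in 156 of all 32851 windows (0.475%). Its pattern is the same on both strands. The 4 elements are shown, in capitals with 10 bases on each side, because the list holds known targets of the receptor. They are chr14:8309875-8309907 on the minus strand for Fam107a and, on the plus strand, chr4:133240627-133240659 for Map3k6, chr8:94178985-94179017 for Mt1 and chr10:21993692-21993724 for Sgk1.

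Fam107a: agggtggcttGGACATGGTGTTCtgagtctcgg
Map3k6: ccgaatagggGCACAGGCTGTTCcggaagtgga
Mt1: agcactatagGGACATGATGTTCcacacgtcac
Sgk1: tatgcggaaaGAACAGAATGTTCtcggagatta

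The saline differences of the genes with such an element were 0.14 for Fam107a, an actin-associated stress gene, 0.45 for Map3k6, a stress kinase gene, 0.041 for the metallothionein gene Mt1 and 0.42 for the kinase gene Sgk1. A match describes the letters of this window and not a bound site.

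Clock and activity-regulated genes had more estimates above 0 than below. Of 21 circadian clock genes 16 had an estimate above 0 (median 0.064, and 0.082 without replicate 4), 9 were higher at an unadjusted p under 0.05 and 0 lower, and 0 were called. The list mean lay between 3.30 and 3.35 in wild type and between 3.38 and 3.44 in Lcn2-/- labelled libraries. Per2, a repressor in the clock loop, measured 3.29, 4.58, 4.51 and 4.66 RPKM in the wild type libraries and 6.55, 6.13, 5.79 and 7.15 RPKM in the Lcn2-/- labelled ones. The groups did not overlap, and wild type replicate 1 was again the lowest (0.60 ± 0.12, adjusted p = 0.54). After LPS the Per2 difference was in the opposite direction (-0.50 ± 0.12, adjusted p = 0.015), and the interaction was called (-1.10 ± 0.18, adjusted p = 0.0037). Per1, which belongs both to this list and to the glucocorticoid list, lay between 8.97 and 12.2 against 13.3 and 14.9 RPKM (0.33 ± 0.093, adjusted p = 0.74) and was called higher after LPS (0.45 ± 0.097, adjusted p = 0.0097).

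Of 23 immediate early genes, which neurons transcribe within minutes of activity, 18 had an estimate above 0 (median 0.15, and 0.12 without replicate 4), 9 were higher at an unadjusted p under 0.05, 0 were lower and 0 were called. The list mean was 2.74, 2.69, 2.64 and 2.62 in wild type and 2.66, 2.76, 2.89 and 2.95 in Lcn2-/- labelled libraries, so the groups overlapped. Egr3, a zinc finger factor, lay between 3.93 and 6.15 against 6.01 and 9.06 RPKM, with overlap (0.49 ± 0.16, adjusted p = 0.74). The orphan receptor gene Nr4a3 lay between 2.19 and 3.18 against 3.25 and 3.95 RPKM, without overlap (0.38 ± 0.12, adjusted p = 0.74). Fos itself was at -0.091, and Btg2 had the lowest difference of the list (-0.30). Among 15 calcium-calmodulin kinase genes 10 had an estimate above 0 (median 0.037, and 0.014 without replicate 4) and 4 were higher at an unadjusted p under 0.05. These included Camkk1, already called in the other models above, and Camk1g (0.22 ± 0.058, adjusted p = 0.74). Of 25 synapse genes 19 lay above 0 (median 0.048). The largest estimates on that list were those of the receptor subunit genes Grin2a (0.63 ± 0.38, and 0.18 ± 0.12 without replicate 4) and Gabrb2 (0.46 ± 0.26, and 0.18 ± 0.13). For Grin2a replicate 4 was at 3.39 RPKM and the other 7 libraries lay between 0.753 and 1.07 RPKM.

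**Figure D4:**
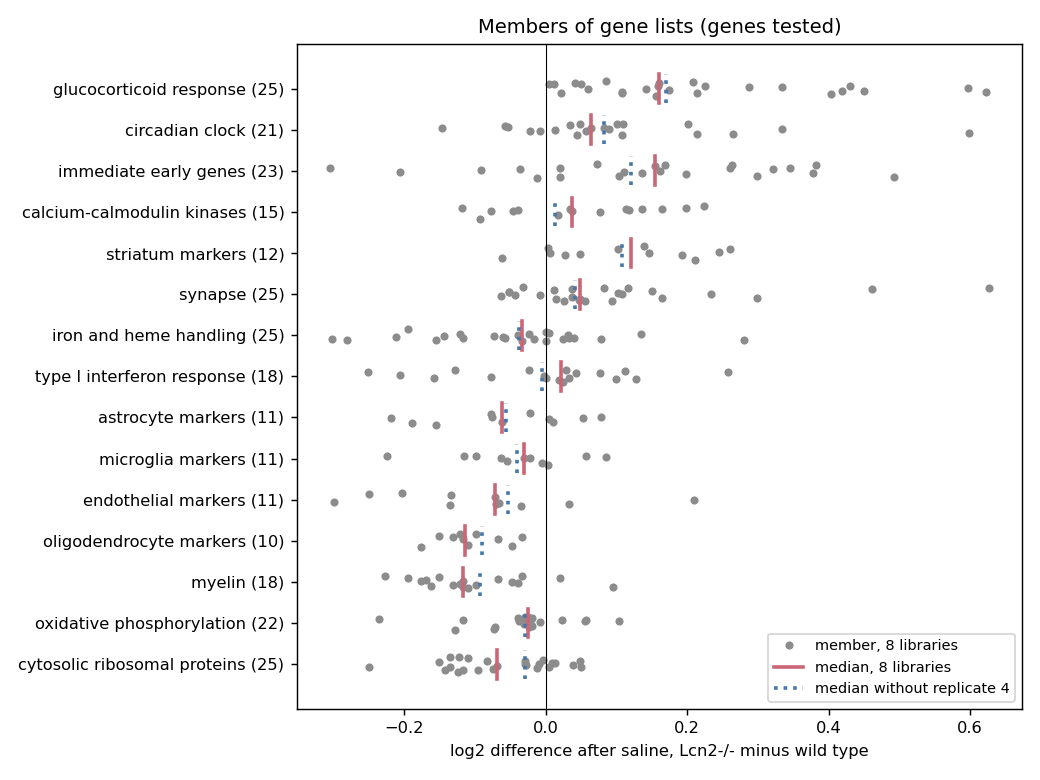
Log2 difference after saline (Lcn2-/- labelled minus wild type) for the tested members of 15 gene lists, with the number tested in brackets. Grey points are members with all 8 libraries, red lines are list medians and dotted blue lines are medians without replicate 4. All 25 glucocorticoid response genes lie above 0 and all 10 oligodendrocyte markers below 0.

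Myelin and oligodendrocyte genes lay on the lower side. Of 18 myelin genes 16 had an estimate below 0 (median -0.12, and -0.093 without replicate 4), 6 were lower at an unadjusted p under 0.05, 0 were higher and 0 were called. All 10 oligodendrocyte markers had an estimate below 0 (median -0.11, and -0.090 without replicate 4), and all 10 are also on the myelin list. Their mean log2 RPKM was 5.76, 5.91, 5.88 and 5.89 in wild type and 5.76, 5.73, 5.81 and 5.73 in Lcn2-/- labelled libraries. Wild type replicate 1 lay with the Lcn2-/- labelled libraries, so the groups overlapped. Qdpr, a pterin reductase gene of oligodendrocytes, lay between 117 and 124 against 87.8 and 111 RPKM, without overlap (-0.23 ± 0.070, adjusted p = 0.74). Gal3st1, which encodes the sulfotransferase that makes sulfatide, was at -0.20 ± 0.15, or -0.043 ± 0.086 without replicate 4, and the galactolipid synthesis gene Ugt8a at -0.18 ± 0.069. After LPS the myelin median was 0.0068, with 1 member called higher and 1 lower.

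Other glial and vascular lists had smaller medians. Astrocyte markers were at -0.062, with Gfap, the astrocyte intermediate filament gene, at -0.22 ± 0.078 and called in the interaction (0.41 ± 0.12, adjusted p = 0.045). Microglia markers were at -0.031 (3 of 11 above 0) and endothelial markers at -0.072 (2 of 11 above 0). The summed level of endothelial markers was 92.9 to 103 RPKM in wild type and 78.0 to 91.4 RPKM in Lcn2-/- labelled libraries. The tight junction gene Cldn5 lay between 35.5 and 44.3 RPKM in wild type, whereas the Lcn2-/- labelled libraries had 36.1, 34.9, 35.2 and 24.5 RPKM, replicate 4 being the lowest (-0.30 ± 0.13, and -0.17 ± 0.072 without it). Blood-brain barrier genes were at 0.0035, with the lipid transporter gene Mfsd2a at 0.25 ± 0.10. Pericyte and smooth muscle markers were at -0.052 (-0.079 without replicate 4) and meningeal fibroblast markers at 0.018. None of these genes was called after saline.

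Region markers bear on whether the tissue pieces held the same parts of the brain. Of 12 striatum markers 11 lay above 0 (median 0.12, and 0.11 without replicate 4), and the list mean was 3.33 to 3.41 in wild type and 3.43 to 3.53 in Lcn2-/- labelled libraries. Drd2, the dopamine receptor of indirect pathway neurons, lay between 7.25 and 8.90 against 9.05 and 9.72 RPKM, without overlap (0.26 ± 0.063, adjusted p = 0.74). Hypothalamus markers had a median of -0.22 (-0.11 without replicate 4), with 3 of 9 above 0 (1 of 9 without replicate 4). Their differences ran from -0.92 to 0.30 with all 8 libraries, and from -0.60 to 0.37 without replicate 4. Their list mean was 2.16 to 2.52 in wild type and 1.82 to 2.29 in Lcn2-/- labelled libraries, so the groups overlapped. The median was -0.077 for thalamus markers, -0.072 (-0.039 without replicate 4) for cerebellum markers, 0.064 (0.012) for cortex markers and 0.027 for hippocampus markers. Olfactory bulb markers, 5 of 7 above 0, had a median of 0.18 (0.16 without replicate 4). The precursor gene of melanocortins, Pomc, lay between 1.47 and 2.31 RPKM in wild type, whereas the Lcn2-/- labelled libraries had 0.947, 1.64, 1.39 and 0.533 RPKM (-0.92 ± 0.33, and -0.60 ± 0.20 without replicate 4). Galanin (Gal) was at -0.64 ± 0.31, or -0.29 ± 0.11 without replicate 4. Of 8 brainstem and monoamine markers 4 lay above 0 and 4 below (median -0.0027, and -0.054 without replicate 4). The 2 farthest from 0 were both below it. Tph2, which marks serotonin neurons of the brainstem, lay between 1.47 and 3.13 against 1.01 and 1.25 RPKM, without overlap (-0.81 ± 0.22, adjusted p = 0.74), and Hoxb5, expressed in the hindbrain, was at -0.78 ± 0.26. The part that tissue composition has in the list medians was not tested.

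Choroid plexus markers were carried by a single library. All 10 lay above 0 (median 0.17, 0.23 without replicate 4 and -0.018 without replicate 2). Their mean log2 RPKM was 2.41 in Lcn2-/- labelled replicate 2 and between 1.55 and 1.69 in the other 7 libraries. Transthyretin (Ttr), the main secreted product of that epithelium, was at 630 RPKM in that replicate and between 464 and 496 RPKM elsewhere, and the potassium channel subunit gene Kcne2 at 4.51 RPKM against 2.28 to 2.67 RPKM. Erythroid markers were lower by estimate in 4 of 4 (median -0.41, and -0.27 without replicate 4). Their mean log2 RPKM was 0.20, 0.39, 1.39 and 1.44 in wild type and 0.39, 0.66, 0.80 and -0.17 in Lcn2-/- labelled libraries. The groups thus overlapped, with wild type replicates 3 and 4 the highest. Of the 3 neutrophil markers tested 2 lay above 0, with S100a9 the highest at 0.52 ± 0.28 with overlapping groups and the lowest at -0.24.

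Among genes of iron handling, in which lipocalin-2 takes part, none was called, and those at an unadjusted p under 0.05 were all lower. Of 25 iron and heme genes 10 had an estimate above 0 and 15 below (median -0.034, and -0.038 without replicate 4), 4 were lower at an unadjusted p under 0.05, 0 were higher and 0 were called. Over all genes 3.03% were lower at that threshold. The groups did not overlap for 3 of the 25, against 5.2% of all genes. Slc40a1, which encodes the iron exporter ferroportin, measured 1.61, 1.33, 1.40 and 1.39 RPKM in the wild type libraries and 1.11, 1.10, 1.12 and 1.31 RPKM in the Lcn2-/- labelled ones. The groups did not overlap (-0.30 ± 0.099, adjusted p = 0.74), and after LPS the difference was -1.21 ± 0.35 (adjusted p = 0.029). The metal importer gene Slc39a8 was at -0.28 ± 0.17, or -0.13 ± 0.11 without replicate 4.

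Inflammatory lists had medians between -0.014 and 0.073 with all 8 libraries. Type I interferon response genes were at 0.022 (11 of 18 above 0), NF-kB targets and feedback genes at 0.073 (11 of 13 above 0, and 0.022 without replicate 4), complement and acute phase genes at -0.014 and cytokines and chemokines at 0.045 (0.0097 without replicate 4). Of 22 cytokine and chemokine genes only 9 reached the level for testing. After LPS the medians were 0.87 for interferon and 0.82 for NF-kB genes, with 16 of 18 and 13 of 13 called higher. Complement and acute phase genes were then at 0.092, with 3 of 12 called higher and 1 lower. Cytokines and chemokines were at 0.0044, with 3 of 9 called higher and 1 lower. Over all genes 11.4% were called higher and 13.7% lower after LPS. Cd14, the LPS co-receptor, lay between 0.999 and 1.28 against 1.09 and 1.87 RPKM after saline (0.46 ± 0.17, adjusted p = 0.74) and was called after LPS (1.31 ± 0.12, adjusted p = 0.00017). Its interaction was called (0.85 ± 0.22, adjusted p = 0.029), as was that of Xaf1, an interferon-induced gene (-0.25 ± 0.13 after saline, 0.92 ± 0.091 after LPS, interaction 1.17 ± 0.15, adjusted p = 0.00072). Oxidative stress genes (median -0.020, and -0.0060 without replicate 4), oxidative phosphorylation genes (-0.025), chaperone and unfolded protein genes (-0.028, and -0.0060 without replicate 4) and cytosolic ribosomal protein genes (-0.069, and -0.029 without replicate 4) had 0 called members.

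Replicate 4 differed from the other 3 libraries of its group in the kinds of transcript it held. In it 1041 genes (6.205% of those tested) lay more than 1 log2 unit from the mean of the other 3, against 52 to 134 genes in each of the other 7 libraries. Its median deviation was -0.0095 for 13667 protein coding genes but -0.63 for 702 processed pseudogenes, 0.28 for 770 antisense genes and 0.32 for 129 snoRNA genes. Processed pseudogenes of ribosomal proteins were among the lowest: Rpl18-ps2 was at 0.130 RPKM against 1.79 to 2.51 RPKM in the other 7, and Rps10-ps2 at 0.929 against 6.05 to 9.27 RPKM. The potassium channel gene Kcna2 was at 7.30 RPKM against 1.13 to 1.86 RPKM, sarcolipin (Sln) at 4.74 against 0.670 to 1.52 RPKM, the small nucleolar RNA Snora28 at 5.11 against 1.01 to 1.54 RPKM, and the homeobox gene Tlx3 at 0.216 against 1.09 to 1.77 RPKM. Lists whose median changed sign without this library were, besides the lipocalin family and the lipocalin-2 receptor lists, complement and acute phase genes (0.055 without it), type I interferon genes (-0.0049), oligodendrocyte precursor markers (-0.066 with it and 0.049 without it) and pituitary markers (0.25 and -0.046).

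**Figure D5:**
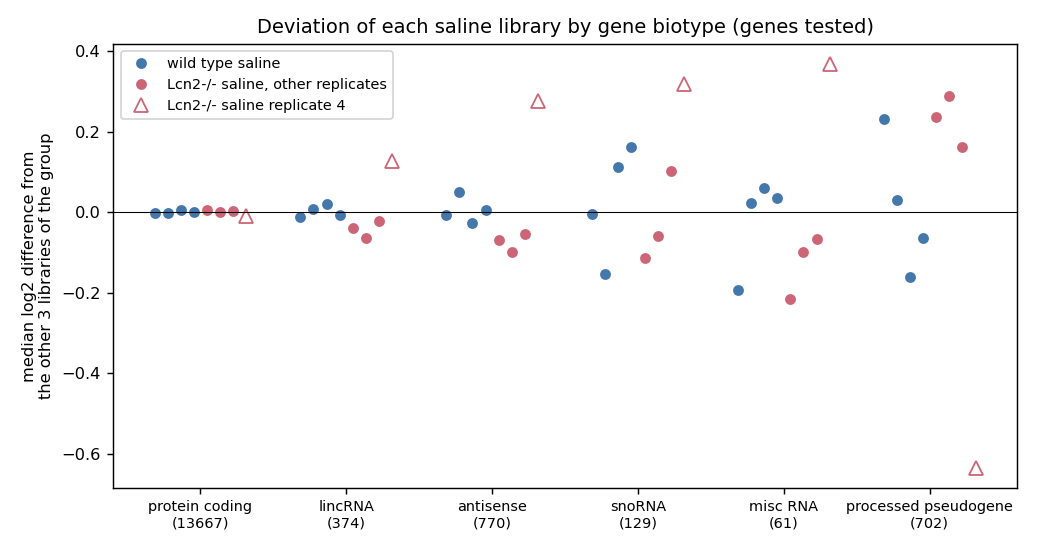
Median log2 difference of each saline library from the other 3 of its group, by gene biotype, with the number of genes tested in brackets. Points are libraries (blue, wild type; red, Lcn2-/- labelled) and the open triangle is replicate 4 labelled Lcn2-/-, which lies at -0.63 for processed pseudogenes and above the other 7 libraries for antisense genes, lincRNA, snoRNA and miscellaneous RNA.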

How the data were processed

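Hemi-brain RNA of 16 mice was measured by RNA-seq. The deposited values are log2 RPKM after conditional quantile normalization, per the file headers and the values, with genome build mm10 per the submitters' processing notes. The sources used here do not name the aligner, the counting tool or the strand setting. Of the per-sample columns, 0 were unused. Of 33289 gene IDs, 32695 matched GENCODE vM21 (GRCm38). Promoters are RefSeq's, GRCm38.p6. Genes at a log2 RPKM of -1 in 3 of 8 saline libraries were tested with limma 3.58.1 in R 4.3.3 (group means, moderation with a trend, two-sided, Benjamini-Hochberg over 16778 genes, called under 0.05), on saline libraries alone; LPS libraries were fitted separately and the interaction on all 16. The procedure was tested on simulated data. Errors are SE from limma. The labels do not say how the mice were bred, so p-values measure only the spread between these samples. The comparison, genes and lists were chosen with earlier results of these data known. Named genes were drawn from those called, receptors, up to 3 called or otherwise the 2 most different members of each list, and the genes farthest from the group in replicate 4. Not every gene of this rule is printed, and a single oligodendrocyte marker is not reported by name. Others were named after their values were seen: Col5a1, Ntng2, Camkk1, Slit2, Gm26659, Lrrc10b, Vsig2, Inka2, Fkbp5, Coq4, 2600006K01Rik, Tmem181a, Dynlt1c, Ezr, Per1, Ttr, Fos, Btg2, Ide, Fgfbp3, March5, Aif1l, Gm13609 and the 4 genes with the response element.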

Additional observations from a re-analysis of the deposited data

Results flagged for a closer look

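In a group of 4 libraries, 1 lay far from the other 3 in 20 of 142 groups checked, 16 of them for saline replicate 4 labelled Lcn2-/-. Chance gives about 1 in 20 groups, but genes named for their distance in that replicate are among those checked, so the counts cannot be read against it. That library was high in log2 RPKM for Vsig2 (2.42), Slc40a1 (0.39), Grin2a (1.76), Gabrb2 (3.13), Kcna2 (2.87) and Snora28 (2.35), and in the number of genes at 0.5 RPKM (17112). It was low for Lrp2 (-4.81), Asic2 (3.41), Fkbp5 (2.23), Slc39a8 (-1.07), Cldn5 (4.61), Tlx3 (-2.21), Rpl18-ps2 (-2.95), Rps10-ps2 (-0.11) and Fgfbp3 (1.13). The other 4 were Per2 in wild type replicate 1 (1.72), Kcne2 in Lcn2-/- labelled replicate 2 (2.18), Snora28 in wild type replicate 4 (0.17) and Ide in wild type replicate 3 (2.86).

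The genotype difference itself differed between LPS and saline for 14 named genes by the interaction term in limma over all genes. It was lower after LPS for Camkk1 (-0.23, adjusted p = 0.0077), Lrrc10b (-0.29, 0.029), Fkbp5 (-0.44, 0.014), Dynlt1c (-0.54, 0.036), Hif3a (-0.88, 0.034), Plin4 (-0.76, 0.029), Per2 (-1.10, 0.0037), Egr3 (-0.87, 0.018), Mfsd2a (-0.42, 0.043), Drd2 (-0.46, 0.023) and Eomes (-1.02, 0.047). It was higher after LPS for Cd14 (0.85, 0.029), Xaf1 (1.17, 0.00072) and Gfap (0.41, 0.045). Over all genes tested, the interaction was called for 1432 (8.53%). Many of the named genes were chosen for their saline difference, which the interaction term subtracts. That choice by itself pushes the term away from the sign of the saline difference, so the count cannot be read against the share of all genes.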

How the results depend on the processing

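Tmem181b-ps, Trub2 and Cercam were called in the same direction under all 20 alternatives (left-out libraries, other filters, pseudocounts, scalings, moderation and models), with adjusted p up to 0.0060, 0.025 and 0.023, and after LPS under each left-out LPS library. The number called moved to 6 higher and 2 lower with all 16 libraries, to 9 and 4 with 15 libraries (chosen after seeing the data), and to 9 higher with array weights; 4 genes within 10 Mb of Lcn2 were called with 16 and with 15. Leaving out 1 saline library gave 2 to 3 higher and 1 to 2 lower. Without wild type replicate 3, Ide was also called. Asic2 was called under 3 of 20, those that leave out or down-weight replicate 4. The Lcn2 difference was 0.24 on log2(RPKM + 0.5). Mc4r ran from -0.40 to 0.039 over the left-out libraries, reversing without replicate 4 (0.039 with 7 or 15 libraries) and with array weights (0.090), and Ptgds with GC and length trends removed (0.00029); neither was called. Of 1170 values of 59 genes, 1147 kept direction and side of the threshold, 19 passed it newly and 4 reversed. Of 540 list medians 18 moved by more than the spread between replicates. No paired analysis was possible because the titles give no replicate numbers shared between groups. Without counts, what depth limits is unknown.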

Other observations

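Ide, which encodes insulin-degrading enzyme, and the neighbouring Fgfbp3 on chromosome 19 varied between wild type libraries. Ide measured 11.3, 11.5, 7.25 and 11.7 RPKM in wild type saline libraries and 6.78, 6.63, 10.6 and 6.44 RPKM in wild type LPS libraries, and between 6.94 and 7.85 RPKM in all 8 Lcn2-/- labelled libraries. Fgfbp3 measured 5.43, 4.92, 3.35 and 4.82 RPKM and 2.69, 2.71, 4.30 and 2.91 RPKM in the same wild type libraries, and between 2.19 and 3.48 RPKM in Lcn2-/- labelled ones. The same 4 wild type libraries, saline replicates 1, 2 and 4 and LPS replicate 3, were the high ones for both genes. March5, also on chromosome 19, lay between 21.7 and 26.4 RPKM in all 16.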
